A study of Mus musculus with 6 samples.

Results

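The R4 regulators of G protein signalling were compared between mouse carotid body and adrenal medulla. Members were all probe sets annotated to Rgs1, Rgs2, Rgs3, Rgs4, Rgs5, Rgs8, Rgs13, Rgs16 or Rgs18 and to no other gene, which gave 23 of the 45037 probe sets tested, for 9 of 18193 genes. No probe set named a member beside a second gene. A probe set is a group of short oligonucleotides that measures 1 transcript region, and its value here is a log2 intensity, so that a difference of 1 is 2-fold. The samples were 3 carotid body pools and 3 adrenal medulla pools from untreated adult mice of the strain C57/BL6 (Charles River), with no allele or agent given for either group. A carotid body pool held 18 organs and an adrenal medulla pool 10, and each came from 10 mice. The group numbers 1 to 3 mark cohorts of animals shared by the tissues, per the series' text. Each value is the average of many animals, and the labels give neither their sexes nor whether the same mice of a cohort gave both tissues.

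G protein-coupled receptors act by loading a G alpha subunit with GTP. RGS proteins speed the hydrolysis of that GTP and so end the signal. The R4 members are the smallest of them, little more than the catalytic RGS domain with a short membrane-binding N-terminal helix, and act on G alpha subunits of the Gi and Gq classes. Rgs2 is the member that prefers Gq. Rgs4, Rgs5 and Rgs16 carry a cysteine behind the initiator methionine, and this residue makes the proteins short-lived through the oxygen-dependent branch of the N-degron pathway. In the carotid body, the organ that senses arterial oxygen, Rgs5 transcripts are known from glomus cells and from pericytes of the vessel wall. In the adrenal medulla chromaffin cells release catecholamines, and Gi- and Gq-coupled receptors can modulate this release.

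Rgs4, Rgs5 and Rgs18 were higher in carotid body, Rgs2 was higher in adrenal medulla, and Rgs1, Rgs3, Rgs8, Rgs13 and Rgs16 did not pass. A probe set was called at an adjusted p under 0.05 (limma, Benjamini-Hochberg over all 45037 probe sets) together with a difference of at least 2-fold. Of the 23 member probe sets, 9 were called higher in carotid body, against 5.95% of all probe sets. A further 3 were called higher in adrenal medulla, against 4.58% of all probe sets, and 11 were not called, so that 12 of 23 were called in either direction, against 10.5% of all probe sets. Probe sets of 1 gene measure RNA of the same gene, though not always the same transcripts, and are not separate observations. Counted by the brightest probe set of each gene, 3 of 9 members were higher in carotid body, against 5.91% of all genes, and 1 of 9 was higher in adrenal medulla, against 6.08%. The carotid body and adrenal medulla arrays did not overlap for 19 of the 23 member probe sets, against 40.2% of all probe sets. The median absolute difference was 1.80 (log2) over the member probe sets and 0.23 over all probe sets. Without carotid body array 1, which stands apart as described next, 10 member probe sets were called toward carotid body and 3 toward adrenal medulla.

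Pearson correlations over all probe sets were 0.978 to 0.984 among the carotid body arrays, 0.991 to 0.995 among those of adrenal medulla and 0.938 to 0.951 across tissues, and array medians lay between 5.16 and 5.32. Carotid body array 1 was high in markers of the steroid-producing adrenal cortex: the mean log2 level of 11 cortex markers was 10.16 there, 5.61 and 5.35 in carotid body arrays 2 and 3, and 11.71 to 12.22 in adrenal medulla. These markers were thus high on all adrenal medulla arrays as well. The log2 difference between the 3' and 5' control probe sets of Gapdh, which grows with RNA degradation, was 0.59 to 1.45 in carotid body against 0.13 to 0.61 in adrenal medulla. Xist, the transcript of the inactive X chromosome, was 8.84 to 10.96 in carotid body against 4.45 to 5.60 in adrenal medulla, so that the sex of the pools and their tissue cannot be told apart. The pools of each cohort thus differed in Xist, and a difference within a cohort cannot be read as one within the same mice. In pools of whole organs, fewer cells of a type and less RNA per cell cannot be told apart either.

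**Figure D1:**
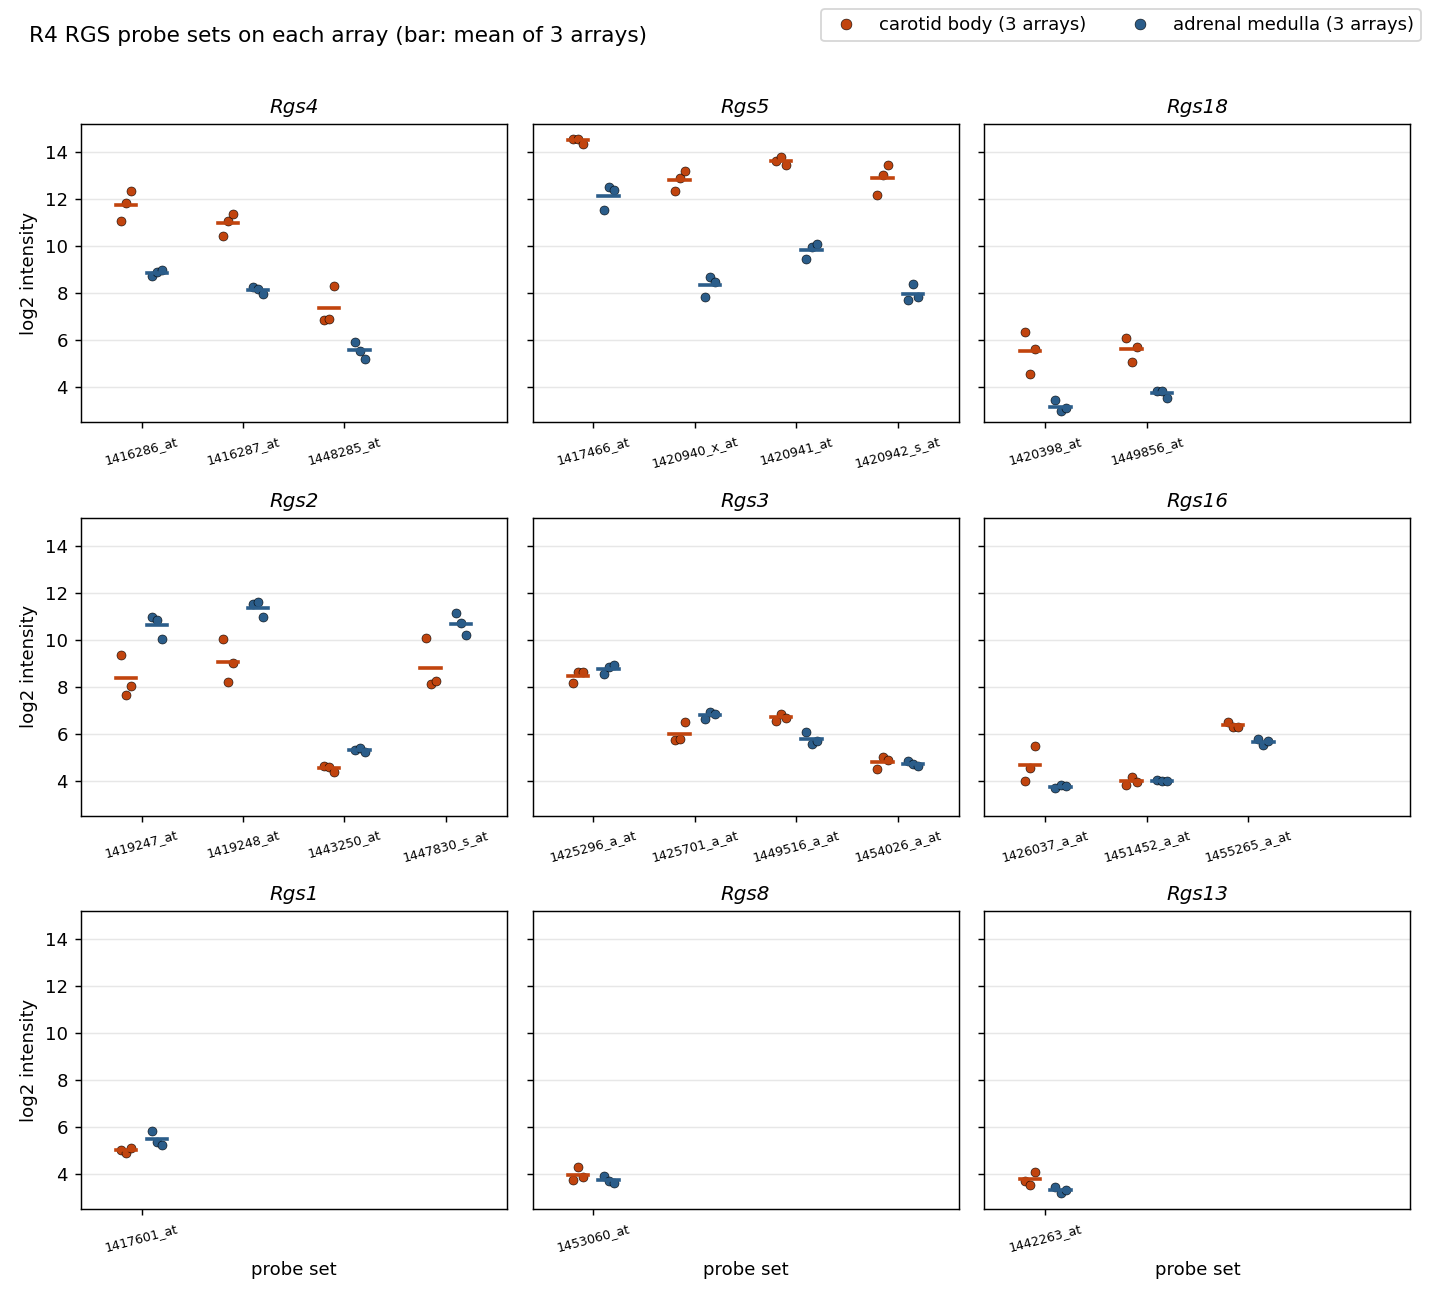
Log2 intensity (vertical axis) of each R4 probe set (horizontal axis) on the 3 carotid body and 3 adrenal medulla arrays, 1 panel per gene, with bars at the mean of 3 arrays. The points of Rgs4, Rgs5 and Rgs18 are apart with carotid body above, those of Rgs2 are apart with adrenal medulla above, and the single probe sets of Rgs8 and Rgs13 stay below 4.5 on every array.

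The 3 largest differences of the family were those of Rgs5 probe sets, while by the brightest probe set of each gene Rgs4, at 2.87 (log2), was above Rgs5, at 2.36. The 4 Rgs5 probe sets were all called higher in carotid body, by 2.36 to 4.91 (log2), and no carotid body array was below any adrenal medulla array for any of them. The brightest probe set, 1417466_at, was 14.57, 14.57 and 14.36 in carotid body arrays 1, 2 and 3 and 11.53, 12.51 and 12.37 in adrenal medulla arrays 1, 2 and 3. The carotid body arrays were close together, and adrenal medulla array 1 was the lowest of all. The means were 14.50 ± 0.12 and 12.14 ± 0.53 (SD, n = 3), a difference of 2.36 ± 0.25 (SE; limma adjusted p = 0.000671). On the carotid body arrays this probe set stood at the top of the measured range: 1, 2 and 0 other probe sets were brighter on arrays 1, 2 and 3. It also gave the smallest of the 4 differences; whether signal near the top of the range is compressed was not tested. Probe set 1420941_at differed by 3.78 ± 0.19 (adjusted p = 3.04e-05), and 1420940_x_at by 4.48 ± 0.28 (adjusted p = 7.6e-05). The dimmest, 1420942_s_at, went from 7.70, 8.40 and 7.81 in adrenal medulla to 12.17, 13.02 and 13.45 in carotid body, a 30.0-fold difference (4.91 ± 0.33; adjusted p = 9.94e-05). The 4 probe sets followed each other over the 6 arrays, with pairwise Pearson correlations of 0.961 to 0.997, which the tissue difference dominates. In absolute size their differences lay at the 98.2 to 99.9 percentiles of all probe sets.

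Rgs4, a member of the nervous system and of secretory cells, was higher in carotid body by all of its 3 probe sets. Probe set 1416286_at was 11.06, 11.83 and 12.33 in carotid body arrays 1, 2 and 3 and 8.71, 8.91 and 8.97 in adrenal medulla. The adrenal medulla arrays agreed within 0.3, while the carotid body arrays spread over more than 1 unit, with array 1 lowest. The difference was 2.87 ± 0.29 (SE; limma adjusted p = 0.000566), or 7.33-fold. It was 2.35, 2.92 and 3.35 within cohorts 1, 2 and 3, and 3.21 without carotid body array 1. A neighbouring probe set, 1416287_at, gave 2.83 ± 0.23 (adjusted p = 0.000236). The third, 1448285_at, was dimmer and less even: 6.84, 6.90 and 8.31 in carotid body against 5.90, 5.55 and 5.21 in adrenal medulla. Its difference was 1.80 ± 0.39 (adjusted p = 0.0143), and the call was lost without adrenal medulla array 2 or 3 (adjusted p = 0.0554 and 0.0584) and without cohort 2 (0.102); without cohort 3, the source of its highest array, the difference was 1.15.

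Rgs16, the remaining member with the N-terminal cysteine, was not called by any of 3 probe sets. Its brightest, 1455265_a_at, was 6.48, 6.26 and 6.30 in carotid body against 5.77, 5.50 and 5.69 in adrenal medulla. The groups did not overlap, and the difference of 0.69 ± 0.13 (SE; limma adjusted p = 0.00696) was under 2-fold. Probe set 1426037_a_at was 3.99, 4.55 and 5.47 in carotid body against 3.68 to 3.81 in adrenal medulla, a difference of 0.92 ± 0.33 (adjusted p = 0.0844). This one passed both thresholds without carotid body array 1 (1.26; adjusted p = 0.0156) and without cohort 1 (1.23; adjusted p = 0.0419). The last, 1451452_a_at, stayed between 3.79 and 4.16 on all arrays, with a difference of -0.014 ± 0.127.

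Rgs4 and Rgs5 are neighbours on mouse chromosome 1 with no annotated protein-coding gene between them, as are Rgs8 and Rgs16, and Rgs2, Rgs13 and Rgs1 follow each other (RefSeq, GRCm38.p6). In the RefSeq annotation 8 of the 9 members lie on chromosome 1 and Rgs3 on chromosome 4. Neighbours thus include a pair called in the same direction and, in Rgs2 and Rgs13, a pair that was not. Sequences upstream of the start site were available for 7 of the 9 members, in 10 windows. Those of Rgs5 and Rgs4, which were higher in carotid body, and of Rgs2, which was higher in adrenal medulla, are shown because these genes carry the contrast. Each is the 250 bases before the RefSeq start site, 5′ to 3′ on the gene's strand in build GRCm38.p6. Capitals mark matches, on either strand, to the CCAAT box (CCAAT, or ATTGG when reversed) and the TATA box (TATAAA).
Rgs5, chr1:169655251-169655500, plus strand: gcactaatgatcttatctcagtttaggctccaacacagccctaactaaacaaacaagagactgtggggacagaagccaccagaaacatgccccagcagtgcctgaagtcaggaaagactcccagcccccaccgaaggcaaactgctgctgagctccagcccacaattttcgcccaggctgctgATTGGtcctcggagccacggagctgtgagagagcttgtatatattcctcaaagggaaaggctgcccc
Rgs4, chr1:169747643-169747892, minus strand: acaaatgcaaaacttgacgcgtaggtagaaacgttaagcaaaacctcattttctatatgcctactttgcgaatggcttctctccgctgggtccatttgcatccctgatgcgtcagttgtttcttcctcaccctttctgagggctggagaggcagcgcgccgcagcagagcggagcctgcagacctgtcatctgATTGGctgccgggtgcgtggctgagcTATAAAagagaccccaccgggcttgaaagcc
Rgs2, chr1:144004150-144004399, minus strand: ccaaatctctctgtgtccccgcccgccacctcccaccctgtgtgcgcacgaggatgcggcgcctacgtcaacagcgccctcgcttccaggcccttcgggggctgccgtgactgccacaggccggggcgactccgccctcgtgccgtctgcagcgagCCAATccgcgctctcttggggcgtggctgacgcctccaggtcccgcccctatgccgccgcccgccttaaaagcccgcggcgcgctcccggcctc
All of these windows held a CCAAT box, whose first base was 67, 57 and 94 bases before the start site of Rgs5, Rgs4 and Rgs2. It was present in 6 of the 10 member windows and in 33.8% of 32851 windows of all genes. Rgs4 also had a TATA box 31 bases upstream, a match found in 12.4% of windows, and Rgs5 and Rgs2 had none in these letters. The window of Rgs2 was richer in G and C, at 72.4%, than those of Rgs4 and Rgs5, both 53.6%, and held 4 GC boxes (GGGCGG), a motif of 32.7% of windows. The half-site of the cyclic AMP response element (TGACG) occurred at 2 places in Rgs2 and 2 in Rgs4, and in 17.8% of all windows. E-boxes (CANNTG) numbered 4 in Rgs4 and 0 in Rgs5 and Rgs2, and 66.2% of windows held at least 1. The form ACGTG of the HIF binding core was in none of the 10 member windows and in 16.6% of all. Its other form, GCGTG, was not counted, and it occurs in the windows of Rgs4 and Rgs2 shown above. The CArG box of smooth muscle promoters was in none of 10 and in 1.47%. Matched letters are not measured binding sites, and these windows cover only the start of each gene.

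Rgs2, which limits Gq signalling in vascular smooth muscle and elsewhere, went the other way and was higher in adrenal medulla by 3 of its 4 probe sets. The brightest, 1419248_at, was 10.02, 8.18 and 9.00 in carotid body arrays 1, 2 and 3 and 11.53, 11.59 and 10.97 in adrenal medulla. Every adrenal medulla array was above every carotid body array, and carotid body array 1 came closest to them. The difference was -2.30 ± 0.43 (SE; limma adjusted p = 0.00736), with -1.51, -3.41 and -1.97 within cohorts 1, 2 and 3. Probe sets 1419247_at and 1447830_s_at differed by -2.25 ± 0.45 (adjusted p = 0.00961) and -1.88 ± 0.51 (adjusted p = 0.0319). The fourth, 1443250_at, was dim, at 4.39 to 4.61 against 5.22 to 5.38, and differed by -0.78 ± 0.12 (adjusted p = 0.00319), under 2-fold.

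The carotid body array highest in Rgs2 was the one high in cortex markers. Without it the difference of 1419248_at was -2.78 (limma adjusted p = 0.00114). All 11 cortex markers had higher means in adrenal medulla and 10 of them were called, with Star, the cholesterol carrier of steroid synthesis, at 12.06 on carotid body array 1, 3.85 and 3.81 on the other carotid body arrays and 13.52 to 13.95 in adrenal medulla. The part of cortex RNA in the Rgs2 difference was not tested. Rgs2 is also induced by stimuli that induce immediate-early genes. Of 12 such genes 2 were called toward carotid body, against 5.91% of all genes. Toward adrenal medulla 5 were called, against 6.08%. Fos was not among those called and differed by -0.09 (limma adjusted p = 0.771). The part of such stimuli in the Rgs2 difference was not tested. Each Rgs2 call was lost without cohort 2, the pair with the largest difference. The values were then -1.74 (limma adjusted p = 0.0742), -1.79 (0.132) and -1.53 (0.264). Calls over all probe sets also fell without cohort 2, from 2680 to 1626 toward carotid body and from 2064 to 952 toward adrenal medulla. Member probe sets called toward carotid body went from 9 to 8. Why the Rgs2 calls were lost was not tested. Probe set 1447830_s_at also lost its call without carotid body array 2 or 3 (adjusted p = 0.11 and 0.068), without adrenal medulla array 1, 2 or 3 (0.0984, 0.101 and 0.0548) and without cohort 3 (0.0894).

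**Figure D2:**
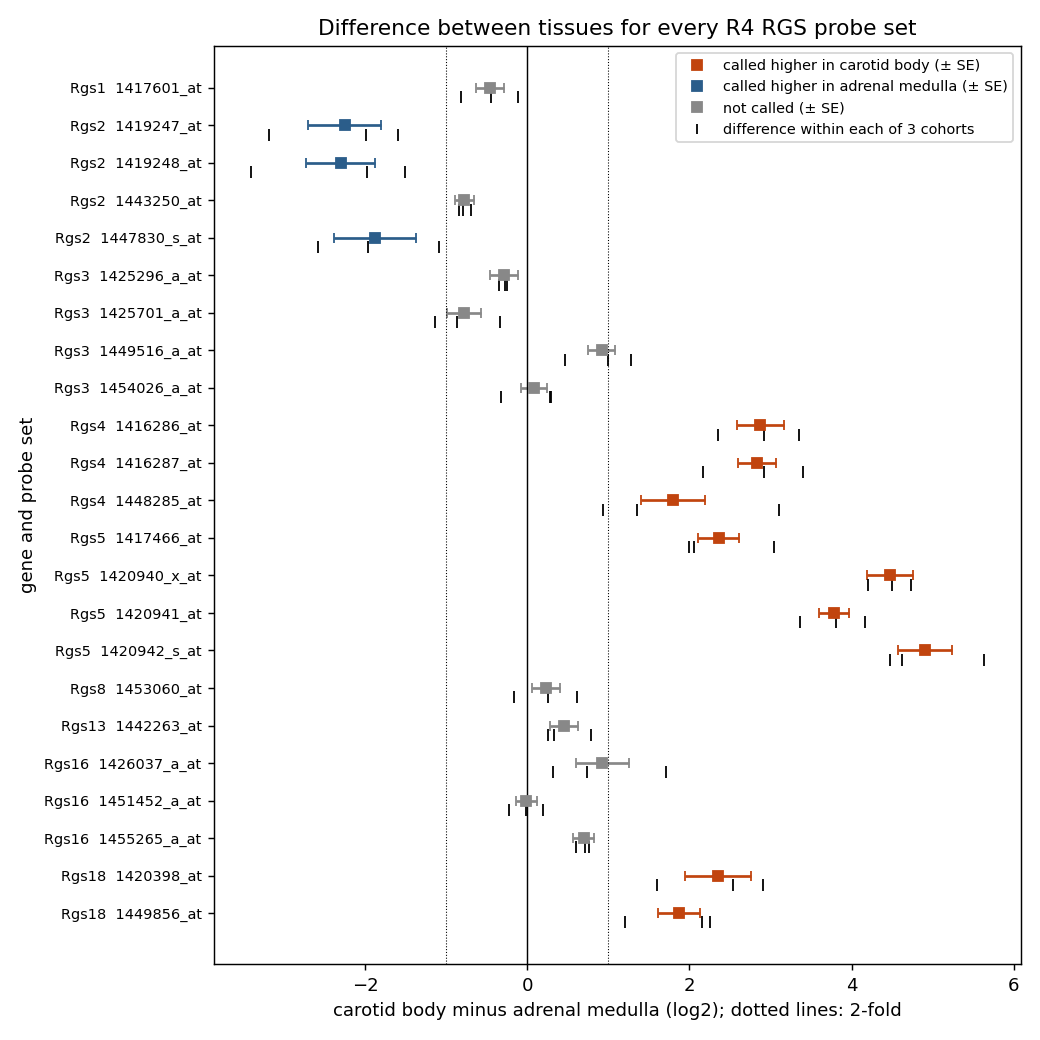
Carotid body minus adrenal medulla (log2, horizontal axis) for each of the 23 R4 probe sets (vertical axis), as squares with the SE, coloured where called, with ticks for the difference within each of the 3 cohorts. The 9 coloured squares to the right belong to Rgs4, Rgs5 and Rgs18, the 3 to the left to Rgs2, and probe sets of Rgs3 lie on both sides of 0.

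The 4 probe sets of Rgs3 did not go one way. This gene makes several proteins from different start sites, long ones with added domains and short ones that hold little beyond the RGS domain. The RefSeq table lists 16 transcripts for it, of which 4 are curated, against 1 for Rgs4, which is curated. Probe set 1449516_a_at was 6.53, 6.85 and 6.68 in carotid body against 6.06, 5.57 and 5.68 in adrenal medulla, a difference of 0.92 ± 0.16 (SE; limma adjusted p = 0.00612). Probe set 1425701_a_at was 5.74, 5.76 and 6.49 in carotid body against 6.61, 6.90 and 6.82 in adrenal medulla, a difference of -0.78 ± 0.21 (adjusted p = 0.0339). Both separated the tissues without overlap, in opposite directions, and both were under 2-fold. The first passed 2-fold without adrenal medulla array 1 (1.06; adjusted p = 0.00507) and the second without carotid body array 3 (-1.03; adjusted p = 0.00204). Subtracting the second from the first on each array gave 0.79, 1.09 and 0.20 in carotid body against -0.55, -1.33 and -1.14 in adrenal medulla, so the balance between the 2 measured regions differed by 1.70 (log2) between tissues; this pair was picked after its values were seen and has no test. The brightest Rgs3 probe set, 1425296_a_at, was 8.17, 8.60 and 8.63 against 8.52, 8.85 and 8.90, with overlap and a difference of -0.29 ± 0.17 (adjusted p = 0.281). The fourth, 1454026_a_at, differed by 0.08 ± 0.16 (adjusted p = 0.765).

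Among the members known from blood cells, Rgs18, which is found in platelets and their precursors, was higher in carotid body. Probe set 1449856_at was 6.10, 5.05 and 5.69 in carotid body against 3.84, 3.84 and 3.54 in adrenal medulla. The adrenal medulla arrays lay near the floor of the scale, and carotid body array 2 was the lowest of its group. The difference was 1.87 ± 0.25 (SE; limma adjusted p = 0.00204), and the other probe set, 1420398_at, gave 2.35 ± 0.40 (adjusted p = 0.00548). The adrenal medulla means stood at the 18.9 and 1.9 percentiles of all probe sets in that tissue, so that both differences may be lower bounds. Neither lost its call under any alternative that was run. Without carotid body array 1 the differences were 1.63 and 1.93. Of 7 platelet markers 1 was called, or 14.3%, near the 12% of all genes called in either direction. It was the chemokine gene Pf4, at 9.60 to 10.13 in carotid body against 7.32 to 7.41 in adrenal medulla. The mean log2 level of the 7 was 6.46 to 6.53 in carotid body against 5.86 to 5.95 in adrenal medulla. Pf4 differed by 2.44, while the median difference of the 7 was 0.33. The part of blood cells in the Rgs18 difference was not tested.

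Rgs1 and Rgs13, known from lymphocytes, and Rgs8, known from Purkinje neurons, were not called. Rgs1 was 5.02, 4.92 and 5.13 in carotid body against 5.84, 5.37 and 5.24 in adrenal medulla. The groups did not overlap, and the difference was -0.46 ± 0.17 (SE; limma adjusted p = 0.096). Rgs13, which is also found in mast cells, was 3.69, 3.53 and 4.10 in carotid body against 3.44, 3.21 and 3.32 in adrenal medulla, a difference of 0.45 ± 0.17 (adjusted p = 0.0932). Its mean was at the 10.9 percentile of all probe sets, so that a dim signal cannot be told from none. In the same pools 6 of 8 mast cell markers were called higher in carotid body, against 5.91% of all genes. The mast cell carboxypeptidase Cpa3 was at 9.48 to 9.94 in carotid body against 3.80 to 4.69 in adrenal medulla. Of 11 macrophage and lymphocyte markers 2 were called higher in carotid body, against the same 5.91%. Ptprc, the pan-leukocyte marker, differed by 0.42 (limma adjusted p = 0.0663). Rgs8 was 3.74, 4.31 and 3.89 against 3.91, 3.70 and 3.63, with overlap, and differed by 0.23 ± 0.17 (adjusted p = 0.388).

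Markers of the cell types known for Rgs5 and Rgs4 moved between the tissues as well. Of 14 smooth muscle and pericyte markers, with Rgs5 left out of the list, 12 were called toward carotid body and 0 toward adrenal medulla (limma; 13 and 1 at an unadjusted p under 0.05), and their median difference was 2.23 (log2). Their mean level was 9.37 to 9.55 in carotid body against 7.35 to 7.52 in adrenal medulla. Acta2 and Myh11, of the contractile apparatus, differed by 3.84 and 3.85. Of 9 markers of glomus and chromaffin cells, 6 were called toward adrenal medulla and 0 toward carotid body (limma). At an unadjusted p under 0.05 these were 8 and 1. Their mean level was 10.58 to 10.92 in carotid body against 12.24 to 12.72 in adrenal medulla. Th, the rate-limiting enzyme of catecholamine synthesis, differed by -1.81. Ddc went the other way, by 0.81 (adjusted p = 0.0207), under 2-fold, and was picked after its values were seen. Rgs4 and Rgs5 were thus higher in the tissue in which most vessel-wall markers were higher and most catecholamine cell markers lower. Among other lists, 8 of 8 fibroblast genes were called toward carotid body, with Col1a1 at 3.30. So were 5 of 6 glial genes, with Mbp at 3.39, and 3 of 8 endothelial genes, with Cdh5 at 1.28. Neuron genes had 1 of 9 called in each direction. Beside these lists, 5.91% of all genes were called toward carotid body and 6.08% toward adrenal medulla. The part of cell composition in the R4 differences was not tested.

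**Figure D3:**
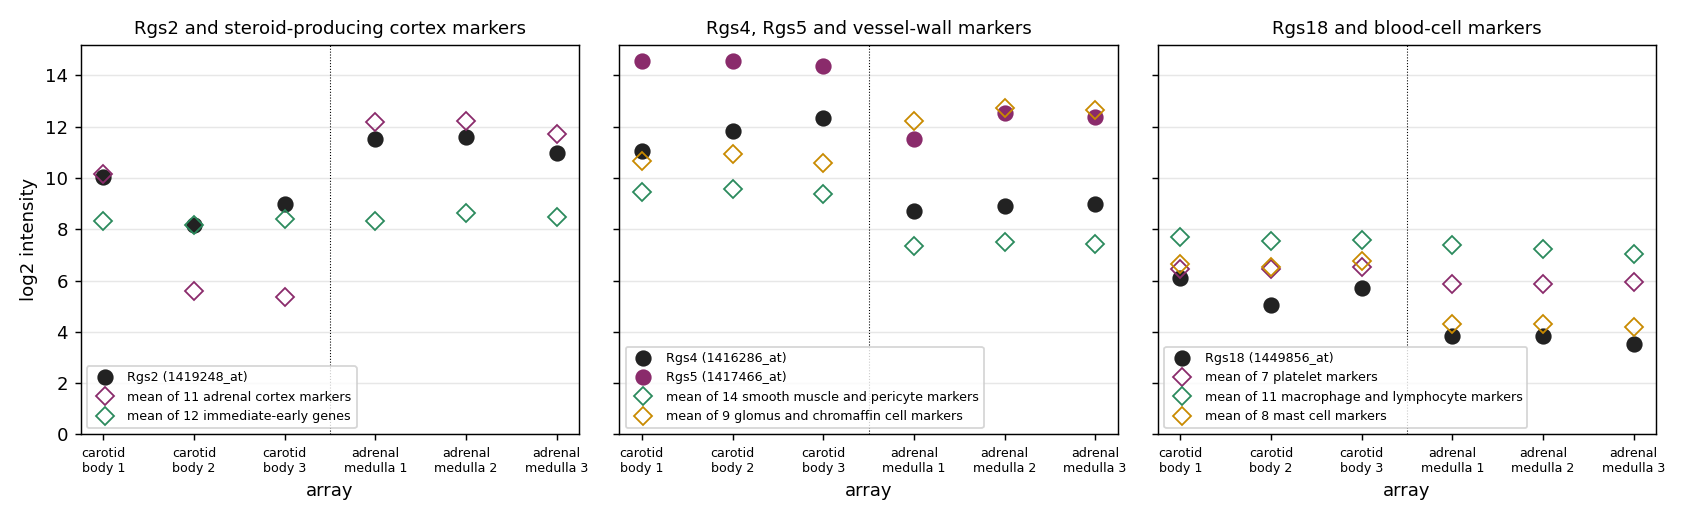
Log2 intensity (vertical axis) on each of the 6 arrays (horizontal axis) of the brightest probe set of Rgs2, Rgs4, Rgs5 and Rgs18 (filled circles) beside the mean level of marker lists (open diamonds). Heights of different genes are not comparable; the reader should follow each symbol across arrays, such as the cortex markers at 10.16 in carotid body array 1 against 5.61 and 5.35 in arrays 2 and 3, where Rgs2 is also highest in array 1.

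The other RGS families went both ways. Of 10 measured RGS proteins outside R4, 1 was called toward carotid body and 2 toward adrenal medulla, beside 12% of all genes called in either direction, and the median difference was -0.029 against -0.039 over all genes. Rgs10, a small RGS protein of microglia and other immune cells, differed by 1.53 ± 0.13 (SE; limma adjusted p = 0.000296). Rgs11 and Rgs7, R7 members that work in a complex with the G beta subunit Gnb5, differed by -1.81 ± 0.18 (adjusted p = 0.000462) and -1.31 ± 0.17 (adjusted p = 0.00172). Gnb5 differed in the same direction, by -1.06 ± 0.24 (adjusted p = 0.0171); its other probe set gave -0.32, and its difference was under 2-fold without carotid body array 1 (-0.78) and it lost its call without adrenal medulla array 2 or 3 (adjusted p = 0.0737 and 0.0587). The membrane anchor of the R7 complex, Rgs7bp, differed by 1.81 ± 0.20 (adjusted p = 0.000776), with 2 of its 3 probe sets called. Gnb5 and Rgs7bp were the called genes among 6 measured RGS partners, beside 12% of all genes called in either direction. Rgs21 and Rgs22 are not analysed here, neither among the 9 members nor among these 10, and no family is assigned to them.

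Of 9 G alpha subunits on which R4 proteins act, 0 were called higher in carotid body (limma; 3 at an unadjusted p under 0.05) and 1 was called higher in adrenal medulla, a share of 11.1% near the 12% of all genes. In all 4 had an adjusted p under 0.05, and the median absolute difference was 0.30 (log2) against 0.26 over all genes. The called subunit was Gna14, of the Gq class, with 9.09, 8.30 and 8.09 in adrenal medulla and 5.91, 5.72 and 6.30 in carotid body. Its difference was -2.52 ± 0.27 (SE; adjusted p = 0.000738), and its 3 probe sets, all called, ranged from -3.04 to -2.32. The other Gq-class subunits did not follow it: Gnaq differed by 0.41 (adjusted p = 0.0499), Gna15 by 0.14 (0.752) and Gna11 by -0.18 (0.458). Gnai2, of the Gi class, differed by 0.57 (adjusted p = 0.022), under 2-fold. Gnai1, also of the Gi class, differed by 0.95 ± 0.14 (adjusted p = 0.00276). It passed 2-fold without carotid body array 2 (1.01) and without adrenal medulla array 2 or 3 (1.01 and 1.00). The 3 probe sets of Gnai1 ranged from -0.06 to 0.95 and the 2 of Gnai2 from 0.04 to 0.57, and none was called. Gnaq, Gna15, Gna11, Gnai2 and Gnai1 were picked after their values were seen.

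Among 10 effectors of Gq and Gi, 1 was called in each direction by the brightest probe set. Over all genes the shares were 5.91% toward carotid body and 6.08% toward adrenal medulla. Kcnj3, a potassium channel subunit opened by G beta gamma after Gi activation, was 6.31, 6.95 and 7.30 in carotid body against 4.50, 4.63 and 4.70 in adrenal medulla. Its difference was 2.24 ± 0.24 (SE; limma adjusted p = 0.000681), and of its 4 probe sets, which ranged from 0.027 to 2.24, 2 were called. Plcb1, a phospholipase activated by Gq, differed by -1.12 ± 0.18 (adjusted p = 0.00379) and was under 2-fold without adrenal medulla array 1 (-0.95). Its 5 probe sets ranged from -1.12 to 0.21. Plcb4, picked after its values were seen, was not called by its brightest probe set, at 0.53 (adjusted p = 0.0847). The 5 probe sets of Plcb4 ranged from -0.52 to 2.25, and 1 of them was called. Of 20 receptors coupled to Gi or Gq, 4 were called toward carotid body and 3 toward adrenal medulla, against 12% of all genes called in either direction. The ADP receptor P2ry12 differed by 3.60 ± 0.27 (adjusted p = 0.000148), the lysophosphatidic acid receptor Lpar1 by 1.97 ± 0.16 (adjusted p = 0.000211) and the sphingosine phosphate receptor S1pr1 by 1.38 ± 0.14 (adjusted p = 0.000539). Toward adrenal medulla, the chemokine receptor Cxcr4 differed by -2.75 ± 0.42 (adjusted p = 0.0034), the angiotensin receptor Agtr1a by -2.04 ± 0.24 (adjusted p = 0.00114) and the thrombin receptor F2r by -1.44 ± 0.22 (adjusted p = 0.00333).

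Genes of the machinery that degrades Rgs4, Rgs5 and Rgs16 through their N-terminal cysteine were measured as well. Of 8 of them, which include Ado, the thiol dioxygenase that oxidises the cysteine, Ate1, the arginyl transferase that marks it, and the ubiquitin ligases Ubr1 and Ubr2, 0 passed in each direction (limma; 1 toward carotid body and 2 toward adrenal medulla at an unadjusted p under 0.05), and with 12% of all genes called a count of 0 among 8 does not set this list apart. Ado was 8.50, 8.41 and 9.10 in carotid body against 8.28, 8.18 and 8.18 in adrenal medulla, a difference of 0.46 ± 0.19 (SE; adjusted p = 0.126). Ate1 and Ubr1 differed by 0.053 and 0.014 at their brightest probe sets. The 5 probe sets of Ate1 ranged from -0.49 to 0.053 and the 4 of Ubr1 from -0.28 to 0.79, and none was called. Metap1 was the only gene of this list with an adjusted p under 0.05 at its brightest probe set. It is a methionine aminopeptidase that exposes the second residue, and it differed by -0.67 ± 0.13 (limma adjusted p = 0.00988). Ado, Ate1, Ubr1 and Metap1 were picked after their values were seen. These are RNA levels, and the stability of the proteins was not measured.

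**Figure D4:**
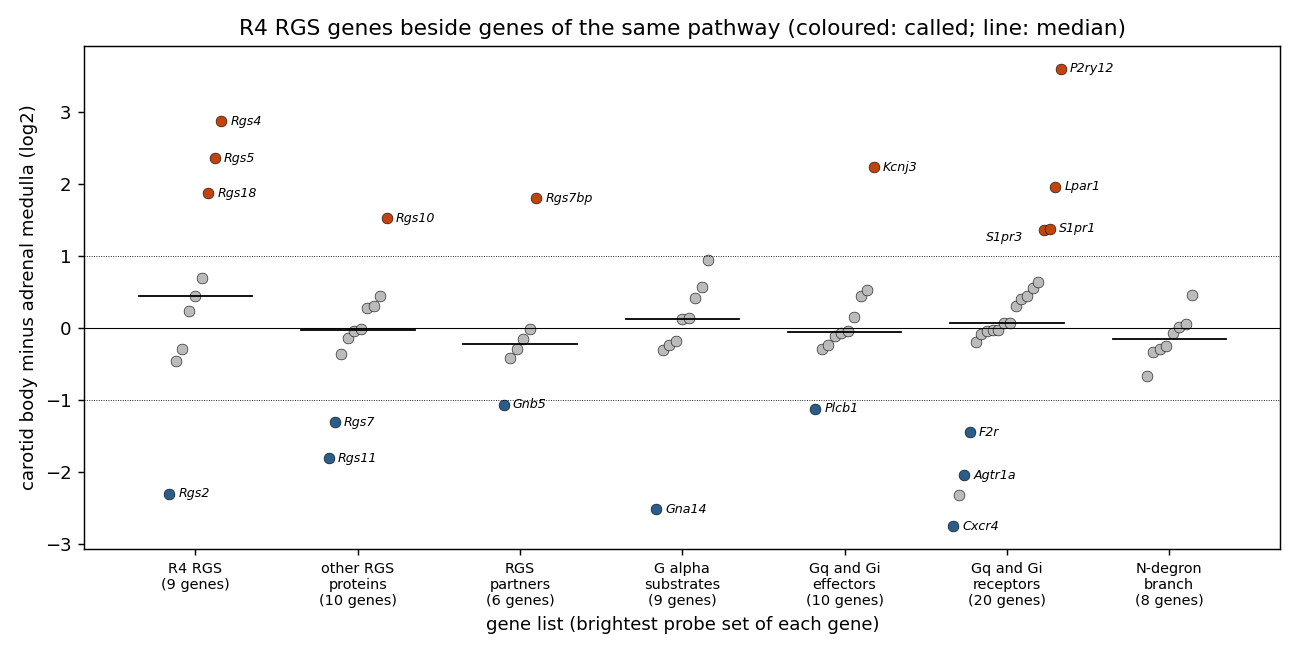
Carotid body minus adrenal medulla (log2, vertical axis) for the brightest probe set of each gene in 7 lists (horizontal axis), coloured and named where called, with a line at each list's median. The R4 genes hold 3 called genes above 0 and Rgs2 below -2, the G alpha list has Gna14 alone, and no gene of the N-degron branch is past 2-fold.

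The genes whose log2 values were most like those of a member over the 6 arrays were taken by Pearson correlation among the 12016 genes of at least median level, as a description. For Rgs4 these were Kcnj3 (0.9999), the spindle checkpoint gene Bub3 (0.9997) and the mitochondrial gene Fam162a (0.9994). For Rgs5 they were Nrn1 (0.9986), Epha3 (0.998) and the glucocorticoid receptor Nr3c1 (0.9979). For Rgs2 they were Dbt (0.9961), Stoml2 (0.996) and Stxbp2 (0.9956), and for Rgs16 Aif1 (0.9948), Nrp1 (0.9934) and Lrch1 (0.9929). With 6 points in 2 tissue groups, the difference between tissues sets most of each value. Likeness in shape did not mean likeness in size: Bub3 differed between tissues by 0.94 (log2) and Kcnj3 by 2.24, beside 2.87 for Rgs4. Among the members themselves, Rgs4 and Rgs5 had a correlation of 0.936 and Rgs4 and Rgs2 one of -0.939 over the same arrays.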

How the data were processed

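The deposited table holds 1 log2 intensity per probe set and array. Affymetrix Expression Console was the authors' tool, per the submitters' processing notes. The sources used here do not give its version, summarisation or normalization. The log2 scale was read from the deposited values. Per the labels' protocols, biotin labelling used the 3' IVT Express kit (in vitro transcription). Detection calls were not used, so low intensity and absence of a transcript look alike, and precision is limited by the number of arrays.

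Of 45101 probe sets, 64 controls were left out. Gene names follow the 2016 platform annotation, with 1 symbol for 34945 probe sets and several for 932, which stayed unnamed. In lists a gene stood for its brightest probe set. Genes without a probe set of their own are not analysed here. The fit was limma 3.58.1 in R 4.3.3 (lmFit, eBayes, 2 groups, no block), two-sided, tested on simulated data first. Differences are carotid body minus adrenal medulla. No list was tested as a set.

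The members and lists were chosen with earlier results of these data known. The naming rule took every member, the 2 largest called differences in each direction of a pathway list (3 for receptors), 12 defining markers and the 3 most similar genes of Rgs2, Rgs4, Rgs5 and Rgs16. Pairing rests only on the series' statement on cohorts, whose pools differed in Xist; deviations from the tissue means correlated at 0.220, 0.0836 and 0.163 for cohorts 1, 2 and 3, and at -0.214 to 0.101 between cohorts. Alternatives were the cohort as a block, quantile normalization, median centring, removal of probe sets below the 25th percentile, array weights, eBayes with trend and robust variances, treat against 1.5-fold, the mean of a gene's probe sets, and leaving out each array or cohort. A pseudocount, planned for linear values, was not needed. Upstream sequences and gene order came from RefSeq, GRCm38.p6.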

Additional observations from a re-analysis of the deposited data

How the results depend on the processing

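Of the 12 called member probe sets, 8 kept their call and 12 their direction in the 16 alternatives run; over all 23, no called difference changed sign. With the cohort as a replicate block, 9 member probe sets were called toward carotid body and 3 toward adrenal medulla, as without it, and the block changed no call of a member. Leaving out single arrays gave 8 to 10 and 2 to 3. Without cohort 2, 0 member probe sets were called higher in adrenal medulla (limma), and against 1.5-fold (treat) 1 was. Over all probe sets, those called without cohort 2 were 1626 toward carotid body and 952 toward adrenal medulla, and under treat 1659 and 1013, against 2680 and 2064. Median centring shifted all differences by a median of -0.115 and the share of called probe sets higher in carotid body from 56.5% to 46.0%.

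The partner Gnb5 was the call lost where RGS partners higher in adrenal medulla numbered 0: after quantile normalization, under treat, without cohort 1 or 2 and with the mean of a gene's probe sets; leaving out single arrays gave 0 to 1. G alpha genes higher in carotid body numbered 1 after quantile normalization and without cohort 2, and 0 to 1 leaving out single arrays. Effectors higher in adrenal medulla numbered 0 under treat, without cohort 2 and with the mean of probe sets, and 0 to 1 leaving out single arrays; those higher in carotid body numbered 0 with the mean of probe sets. The cause was not tested. With 3 arrays a tissue, values near the floor of the scale, such as those of Rgs8 and Rgs13, carry little information on either direction.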
